A study of Mus musculus with 17 samples.

Results

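The glycolysis and hypoxia response genes described here are 37 genes, chosen by their symbol in the gene name column of the deposited count table. They occupy 38 of the table's 21931 rows, because Aldoa is listed under 2 gene identifiers. Of the 37 genes, 36 had enough reads to enter the test, among 13005 genes tested in all. Car12, a membrane-bound carbonic anhydrase, had too few reads for that test and is given by its level and its ratio to Car9. RNA was sequenced from MC38 tumors, which grow from a mouse colon cancer line. Wild-type C57BL/6J mice aged 6 to 8 weeks received the cells under the skin of both flanks. For the cryoablation group (8 tumors), the tumor of 1 flank was frozen at day 7, in what the labels describe as 2 freezing cycles of 20 s, and the untreated tumor of the other flank was collected 5 days after the freezing. The control group (9 tumors) came from mice without ablation, and the labels do not say how these mice were handled or which flank was sampled. The comparison asks what happened to RNA levels in a tumor that was itself never frozen.

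Cells that run short of oxygen keep the transcription factor subunits HIF-1 alpha (Hif1a) and HIF-2 alpha (Epas1) from being degraded. The stabilized subunits bind DNA together with their partner Arnt and raise the transcription of glucose transporters, glycolytic enzymes, lactate export, pH control and vessel growth factors. Tumors express many of these genes even where oxygen is plentiful, and in solid tumors their levels often differ between regions near to and far from vessels. Both alpha subunits are controlled largely at the protein level, so their RNA is not a measure of their activity. In bulk tumor RNA, fewer cells of a type and less RNA per cell cannot be told apart.

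The core letters to which HIF binds are ACGTG and GCGTG, and these were searched on both strands, so that the reverse complements CACGT and CACGC counted too. The windows were 300 bases long, from 250 bases before to 50 bases after each gene start in the RefSeq annotation of GRCm38.p6. They were available for 33 of the 37 members, with 44 windows. At least 1 match was found in 79.5% of the members' windows and in 43.8% of all 32851 windows, and at least 2 matches in 61.4% and 20.6%. Counting the best window of each gene, 29 of 33 members (87.9%) and 46.7% of all genes held a match. Ndrg1, Slc2a3, Bnip3l and Epas1 had no window to search. The 6 promoters below belong to members described in full and hold 2 or more matches each, which are in capitals. Where the letters read CACGTG, 1 stretch was counted as 2 overlapping matches, 1 on each strand.
Pdk1, chr2:71872974-71873273, plus strand: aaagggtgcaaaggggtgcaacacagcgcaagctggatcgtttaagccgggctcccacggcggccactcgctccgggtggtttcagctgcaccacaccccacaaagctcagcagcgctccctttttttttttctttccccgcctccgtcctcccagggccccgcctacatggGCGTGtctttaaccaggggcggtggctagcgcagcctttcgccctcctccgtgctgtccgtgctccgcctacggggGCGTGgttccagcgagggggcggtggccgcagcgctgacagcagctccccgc
Bnip3, chr7:138909457-138909756, minus strand: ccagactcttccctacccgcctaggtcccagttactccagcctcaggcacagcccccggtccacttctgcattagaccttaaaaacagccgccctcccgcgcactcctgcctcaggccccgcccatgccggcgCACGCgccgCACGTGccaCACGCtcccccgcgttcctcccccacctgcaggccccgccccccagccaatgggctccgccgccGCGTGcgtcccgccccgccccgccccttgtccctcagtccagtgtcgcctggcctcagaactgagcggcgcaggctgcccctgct
Ldha, chr7:46845554-46845853, plus strand: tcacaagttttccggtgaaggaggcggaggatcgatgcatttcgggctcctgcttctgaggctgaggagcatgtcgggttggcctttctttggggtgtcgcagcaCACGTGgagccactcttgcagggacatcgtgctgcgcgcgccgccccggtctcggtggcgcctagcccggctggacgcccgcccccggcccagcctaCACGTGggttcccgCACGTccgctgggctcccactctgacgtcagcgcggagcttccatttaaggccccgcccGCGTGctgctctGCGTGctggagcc
Ankrd37, chr8:45999801-46000100, minus strand: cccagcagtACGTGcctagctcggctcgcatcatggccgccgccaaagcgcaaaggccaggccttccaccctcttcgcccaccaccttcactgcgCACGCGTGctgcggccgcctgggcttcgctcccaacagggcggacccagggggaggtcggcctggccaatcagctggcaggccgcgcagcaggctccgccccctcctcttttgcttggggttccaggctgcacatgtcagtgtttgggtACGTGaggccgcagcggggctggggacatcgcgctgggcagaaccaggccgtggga
Slc16a3, chr11:120948817-120949116, plus strand: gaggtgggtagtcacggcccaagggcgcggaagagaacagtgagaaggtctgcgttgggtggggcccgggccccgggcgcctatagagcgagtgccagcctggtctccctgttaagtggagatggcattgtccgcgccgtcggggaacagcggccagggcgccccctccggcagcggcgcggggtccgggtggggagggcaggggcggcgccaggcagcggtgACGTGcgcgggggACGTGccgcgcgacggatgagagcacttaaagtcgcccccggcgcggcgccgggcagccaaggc
Higd1a, chr9:121857747-121858046, minus strand: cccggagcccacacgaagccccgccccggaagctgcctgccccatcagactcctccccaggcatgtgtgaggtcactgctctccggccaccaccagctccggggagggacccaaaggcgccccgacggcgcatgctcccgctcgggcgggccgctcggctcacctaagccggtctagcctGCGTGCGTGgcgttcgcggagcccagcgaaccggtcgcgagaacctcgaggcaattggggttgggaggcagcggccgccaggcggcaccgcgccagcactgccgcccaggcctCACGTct
The Ldha window held 7 matches in 5 separate stretches and lies at 1 of 2 starts listed for this gene. The end of this window was found in no GENCODE transcript of Ldha, while the other printed windows ended inside a transcript of their gene. Bnip3 held 5 matches in 4 stretches, Ankrd37 held 4 in 3, Higd1a held 3 in 2, and Pdk1 and Slc16a3 held 2 each. Ldha and Pdk1 have 2 windows each, and the one with the most matches is printed. The other window held 2 matches for Ldha and 0 for Pdk1. A match describes the letters only and does not show that a factor was bound there.

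Total counts were between 13524899 and 17898672 reads per tumor, and levels are given as CPM (counts scaled to a common library size with TMM factors). Nothing in the sources states that each tumor came from a separate mouse, so p-values measure the spread between these tumors. The share of reads on genes shorter than 2000 bases was between 21.9% and 23.9% in cryoablation tumors 2, 4 and 5, and between 11.3% and 18.3% in the other 14 tumors. Of 10 markers of colon epithelium, Cdx2 had no read in any tumor. Krt20, Vil1 and Cldn7 reached at most 7, 11 and 15 counts in a tumor and did not pass the filter. The other 6 (Epcam, Cdh1, Krt8, Krt18, Krt19 and Lgals4) passed it, with 0 of them at an unadjusted edgeR p under 0.05. Summed, the list was at 26.2 to 107.4 CPM in control and 20.5 to 230.3 CPM in cryoablation tumors, where tumors 2, 4 and 5 had 158, 150.5 and 230.3 CPM. Of 7 erythroid markers in the table, 4 passed the filter and all 4 had an unadjusted edgeR p under 0.05, higher after cryoablation; the summed list was at 6.16 to 74.7 CPM in control and 25.1 to 175.1 CPM in cryoablation tumors.

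No member changed between the groups by the test adjusted over all genes: edgeR's adjusted p was at least 0.728 for all 36 members tested, and 0 of 13005 genes passed 0.05. At an unadjusted p under 0.05, 1 member was called (Slc16a3), which is 2.78% of the members where 4.91% of all genes were called (3.74% higher and 1.17% lower after cryoablation). None of the 36 members combined a log2 fold change beyond 1 in either direction with an unadjusted p under 0.05, which held for 0.492% of all genes. An absolute log2 fold change over 0.5 was found for 0 members and for 8.6% of all genes. The members' log2 fold changes ran from -0.44 for Epas1 to 0.42 for Higd1a, with a median of 0.12 beside a median of -0.0088 over all genes tested. For 35 of 36 members the 95% interval of the log2 fold change lay within 1 in either direction. Above 0 lay 25 members (69.4%, where 48% of all genes did) and below it 11. With 1 tumor left out, the number above 0 ran from 20 without cryoablation tumor 7 (45.3% of all genes) to 27 without cryoablation tumor 5 (50.2%).

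**Figure D1:**
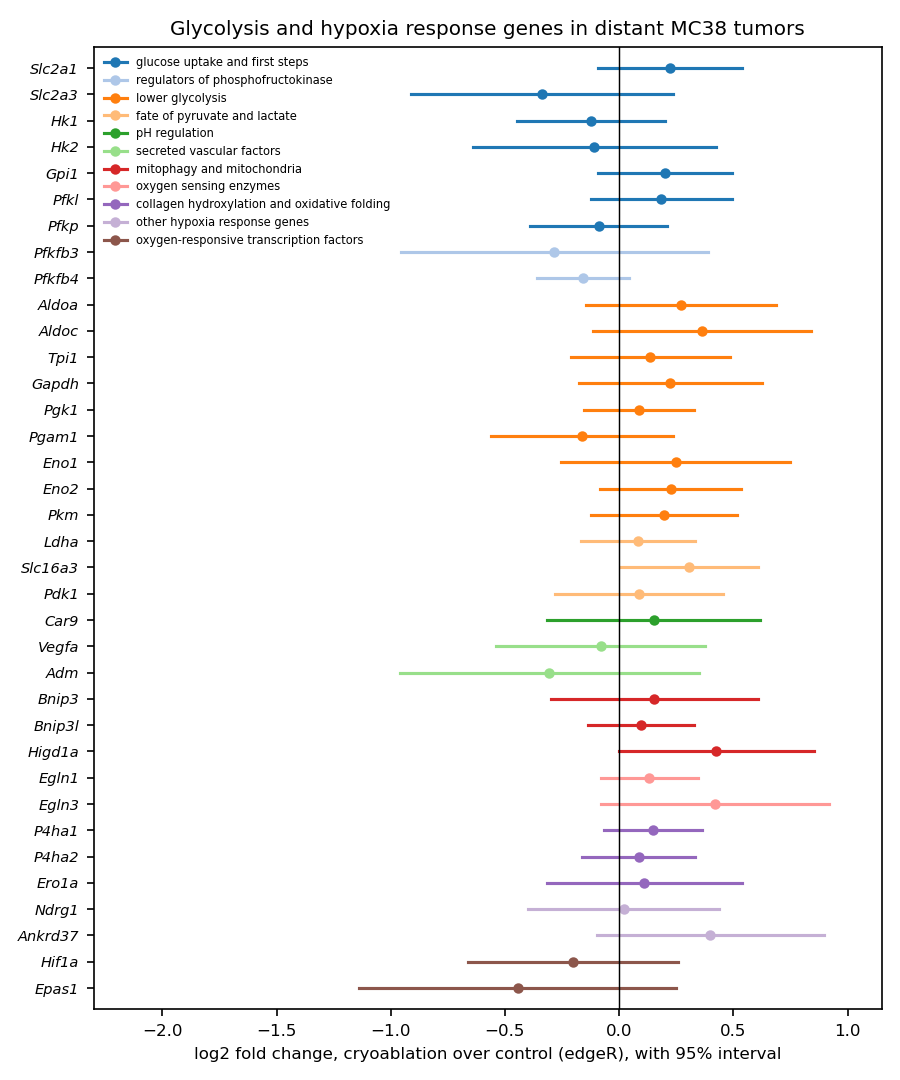
Log2 fold change of each tested member, cryoablation (n = 8) over control (n = 9), from edgeR on the x axis, with bars for the 95% interval and colors for the member's role. Of the 36 points, 25 lie to the right of 0, and the bar of Slc16a3 is the only one that does not reach 0.

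Glucose enters the cell through Slc2a1 (GLUT1) and Slc2a3 (GLUT3), and hexokinases trap it as glucose 6-phosphate. Slc2a1 was at 114.4, 160.1 and 197.3 CPM (lowest, median and highest) in control tumors and at 129.1, 174.1 and 290.4 CPM in cryoablation tumors. Cryoablation tumor 7 alone stood above every control tumor, and the remaining 7 lay within the control range. Its log2 fold change was 0.22 ± 0.15 (SE; edgeR adjusted p = 0.729; exact permutation p = 0.218). Hk2, the hexokinase isozyme that tumors often induce, was at 35.4, 75.3 and 100.2 CPM in control tumors and at 26.8, 55.1 and 123.6 CPM in cryoablation tumors. The lowest and the highest tumor of the series were both in the cryoablation group, tumors 5 and 7. The log2 fold change of Hk2 was -0.11 ± 0.25 (SE; edgeR adjusted p = 0.876). The other members at this stage were Slc2a3 (log2 fold change -0.34), Hk1 (-0.12), Gpi1, which converts glucose 6-phosphate to fructose 6-phosphate (0.20), and the phosphofructokinases Pfkl (0.18) and Pfkp (-0.090), none of which passed the test. Pfkl was above the control median in 8 of 8 cryoablation tumors although its ranges overlapped. Hk1 and Pfkp were each lowest in cryoablation tumor 4.

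The bifunctional enzymes Pfkfb3 and Pfkfb4 set the level of fructose 2,6-bisphosphate, an activator of phosphofructokinase. Pfkfb4 was at 16.4, 18.1 and 22.5 CPM in control tumors and at 13.7, 16.9 and 20.7 CPM in cryoablation tumors. Below the control median were 7 of the 8 cryoablation tumors. This gave a log2 fold change of -0.16 ± 0.096 (SE; edgeR adjusted p = 0.728; exact permutation p = 0.0691). Pfkfb3 was among the 3 most variable of the members tested, at 12.1, 23.3 and 57.2 CPM in control tumors and at 11.6, 19.8 and 42.0 CPM in cryoablation tumors. Control tumors 3 and 4 were the highest and cryoablation tumor 5 the lowest, with all other cryoablation tumors inside the control range. Its log2 fold change was -0.28 ± 0.32 (SE; edgeR adjusted p = 0.778).

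The most abundant members per length were enzymes of lower glycolysis and Ldha. Averaged over the 17 tumors, Eno1 was at 692 CPM per kilobase, Pgk1 at 565, Pkm at 519, Aldoa at 435, Tpi1 at 367 and Pgam1 at 236 CPM per kilobase, while Gapdh was counted at only 76.3 CPM per kilobase, below Gpi1 at 107.0 and P4ha1 at 95.1. Ldha, the next step, stood at 550.4 CPM per kilobase, between Pgk1 and Pkm. At the other end were the isozymes Aldoc at 3.08 and Eno2 at 2.36 CPM per kilobase, beside Slc2a3 at 0.756 and Car12 at 0.077. Of the 9 genes of lower glycolysis, 8 had log2 fold changes above 0 and Pgam1 below, with a median of 0.22, and 0 of the 9 passed the test. The values of Aldoa (0.27), Eno1 (0.25), Gapdh (0.22), Pkm (0.20), Tpi1 (0.14), Pgk1 (0.086), Eno2 (0.23) and Pgam1 (-0.16) all came with 95% intervals that included 0. Without cryoablation tumors 2, 4 and 5 they were -0.10 for Aldoa, -0.14 for Eno1, 0.012 for Gapdh, 0.0093 for Pkm and -0.0051 for Tpi1. In the same fit they were 0.036 for Pgk1, 0.28 for Eno2 and 0.15 for Pgam1.

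Aldoc, an aldolase best known from brain, had the largest fold change of lower glycolysis. It was at 6.70, 8.00 and 12.3 CPM in control tumors and at 5.67, 9.66 and 22.9 CPM in cryoablation tumors. Cryoablation tumor 2 stood alone at the top, tumors 1 and 5 were also above every control tumor, and tumor 7 was the lowest of the series. edgeR put the log2 fold change at 0.36 ± 0.23 (SE; edgeR adjusted p = 0.728; exact permutation p = 0.285). The Aldoc value was 0.0030 without cryoablation tumors 2, 4 and 5 and 0.14 without tumor 2 alone. Reads of near-identical copies could not be separated: the Eno1 retrogene Eno1b held a mean of 697 counts per tumor, Gapdh has many processed pseudogenes, and the second Aldoa row held 5 to 78 counts with a log2 fold change of -0.16.

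At the end of glycolysis, Ldha turns pyruvate into lactate, Slc16a3 (MCT4) carries lactate out of the cell, and Pdk1 phosphorylates pyruvate dehydrogenase and so keeps pyruvate from the mitochondria. Ldha was at 1432, 1785 and 2573 CPM in control tumors and at 1593, 1820.3 and 2280.0 CPM in cryoablation tumors. The highest tumor was control 5, and the cryoablation range lay inside the control range. Between the groups the log2 fold change was 0.083 ± 0.12 (SE; edgeR adjusted p = 0.809). Of the 6 genes whose promoters are printed above, Ldha had the most matches, 7 in the printed window and 2 in its other window. Its log2 fold change was the smallest of the 6, close to that of Pdk1 (0.086). Whether matches go with fold changes was not tested.

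Slc16a3 was the 1 member with an unadjusted edgeR p under 0.05. It was at 161, 178 and 274.7 CPM in control tumors and at 178.8, 218 and 341 CPM in cryoablation tumors. Each of the 8 cryoablation tumors exceeded the control median, tumors 2 and 5 were above every control tumor, and control tumor 5 was higher than the other 6 cryoablation tumors. The log2 fold change was 0.31 ± 0.14 (SE; edgeR unadjusted p = 0.0454, adjusted p = 0.728), and the exact permutation p was 0.0685. The unadjusted p stayed under 0.05 in 5 of the 17 fits that left out 1 tumor each. Without cryoablation tumors 2, 4 and 5, which had the largest shares of reads on short genes, its log2 fold change was 0.074 (edgeR unadjusted p = 0.541), whereas with gene length offsets it was 0.39 and with length and GC content offsets 0.35, both with an unadjusted p under 0.05. Across the 17 tumors its log2 level correlated with that share at r = 0.78, and the summed erythroid markers were at 142, 91.6 and 175.1 CPM in tumors 2, 4 and 5, but the part of either in the difference was not tested.

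Pdk1 was at 78.7, 107.1 and 154 CPM in control tumors and at 67.5, 126 and 175.1 CPM in cryoablation tumors. As for Hk2, the extremes were cryoablation tumors 5 and 7, and the other 6 lay within the control range. This gave a log2 fold change of 0.086 ± 0.17 (SE; edgeR adjusted p = 0.856; exact permutation p = 0.765). Without tumors 2, 4 and 5 it was 0.32 (edgeR unadjusted p = 0.0395).

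**Figure D2:**
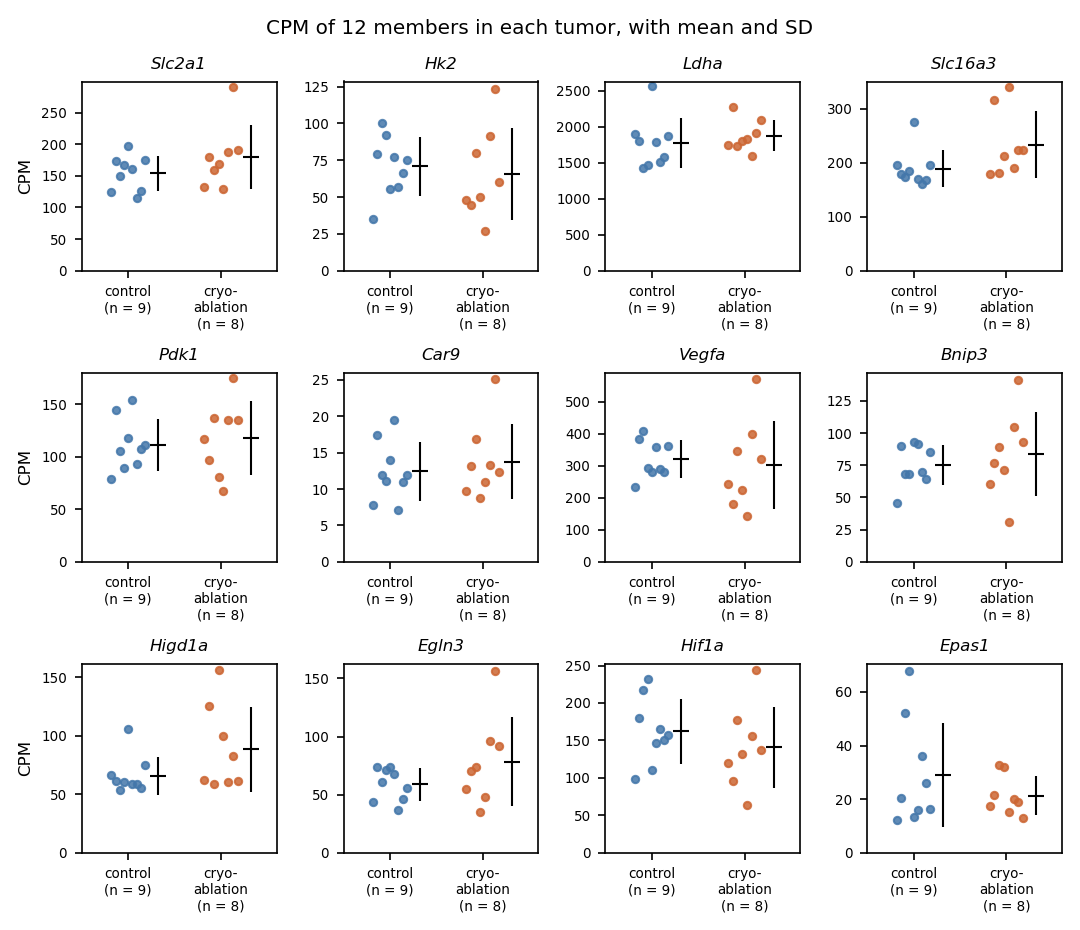
CPM of 12 members in each control (n = 9) and cryoablation (n = 8) tumor, with each dot 1 tumor, horizontal bars for the group mean and vertical bars for the SD, and axes from 0. In every panel the 2 groups overlap, and cryoablation tumor 7 is the single high dot of Slc2a1 (290.4 CPM), Vegfa (569.8 CPM) and Egln3 (156.8 CPM).

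Car9 and Car12 are carbonic anhydrases at the cell surface that turn carbon dioxide into bicarbonate and acid outside the cell. Car9, often used as a marker of hypoxic tumor regions, was low, at 7.18, 11.9 and 19.5 CPM in control tumors and at 8.83, 12.7 and 25.1 CPM in cryoablation tumors. Cryoablation tumor 7 was again the highest, and the other 7 lay within the control range. edgeR put the log2 fold change at 0.15 ± 0.22 (SE; edgeR adjusted p = 0.811; exact permutation p = 0.551). Car12 had a median of 0.462 CPM in control and 0.427 CPM in cryoablation tumors and at most 2.78 CPM in any tumor. With 3 counts worth 0.168 to 0.222 CPM before the TMM factors were applied, a difference in Car12 was not detectable at this depth.

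Vegfa and Adm encode secreted factors that act on blood vessels. Vegfa was at 233.7, 294 and 408 CPM in control tumors and at 144, 282 and 569.8 CPM in cryoablation tumors. Cryoablation tumors 2, 4 and 5 were the 3 lowest of the series, and cryoablation tumor 7 was the highest. Between the groups the log2 fold change was -0.082 ± 0.22 (SE; edgeR adjusted p = 0.890), and without tumors 2, 4 and 5 it was 0.22 (edgeR unadjusted p = 0.217). Of the members, Vegfa had the most negative correlation with the share of reads on short genes (r = -0.88), and the part of that share was not tested. Adm (adrenomedullin), also among the 3 most variable of the members tested, was at 3.14, 5.09 and 12.2 CPM in control tumors and at 1.25, 4.99 and 7.05 CPM in cryoablation tumors. Control tumor 4 was the highest and cryoablation tumors 5 and 2 the lowest. Its log2 fold change was -0.31 ± 0.31 (SE; edgeR adjusted p = 0.769).

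Bnip3 and Bnip3l (NIX) sit on the outer mitochondrial membrane and mark mitochondria for removal, and Higd1a is a small inner membrane protein of the respiratory chain. Bnip3 was at 45.7, 69.8 and 92.7 CPM in control tumors and at 30.8, 83.2 and 141.5 CPM in cryoablation tumors. Above the control median were 6 of the 8 cryoablation tumors, while tumor 5 was the lowest of all 17. The log2 fold change was 0.15 ± 0.22 (SE; edgeR adjusted p = 0.808; exact permutation p = 0.791). Bnip3l, with a log2 fold change of 0.096, ran between 129.6 and 239.9 CPM.

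Higd1a had the largest positive log2 fold change of the members, 0.42 ± 0.20 (SE, with edgeR unadjusted p = 0.0516, adjusted p = 0.728 and exact permutation p = 0.108). It was at 53.3, 60.2 and 105.8 CPM in control tumors and at 58.6, 72.5 and 156.4 CPM in cryoablation tumors. The cryoablation group had tumors 4 and 2 at the top, with tumor 5 just below control tumor 5, and its other 5 tumors lay within the control range. Without tumors 2, 4 and 5 the log2 fold change was -0.025 (edgeR unadjusted p = 0.868). Its correlation with the share of reads on short genes was r = 0.83.

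Egln1 (PHD2) and Egln3 (PHD3) are the oxygen-dependent prolyl hydroxylases that tag HIF alpha subunits for degradation, and Egln3 is itself a well-known HIF target. Egln3 was at 36.5, 60.5 and 73.8 CPM in control tumors and at 35.4, 72.5 and 156.8 CPM in cryoablation tumors. Tumors 3, 6, 7 and 8 of the cryoablation group were above every control tumor and tumor 4 was below every control tumor. This gave a log2 fold change of 0.42 ± 0.24 (SE; edgeR unadjusted p = 0.0956, adjusted p = 0.728; exact permutation p = 0.235). Without cryoablation tumors 2, 4 and 5 it was 0.68 (edgeR unadjusted p = 0.00609, still 0 genes with an adjusted p under 0.05), and without tumor 7 alone it was 0.19. Egln1 differed less, with a log2 fold change of 0.13.

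P4ha1 and P4ha2, the catalytic subunits of collagen prolyl 4-hydroxylase, and Ero1a, which oxidizes protein disulfide isomerase in the endoplasmic reticulum, had log2 fold changes of 0.15, 0.086 and 0.11. Ero1a reached 304.4 CPM in cryoablation tumor 7, beside 90.5 to 182.4 CPM in the other 16 tumors. Ndrg1, a stress-responsive gene used in hypoxia signatures, had the smallest difference of the members, with a log2 fold change of 0.020 ± 0.20 (SE). Its range was nevertheless wide, from 93.8 CPM in cryoablation tumor 5 to 379 CPM in cryoablation tumor 7. Ankrd37, an ankyrin repeat protein gene, was at 7.12, 11.6 and 23.9 CPM in control tumors and at 8.73, 16.2 and 24.2 CPM in cryoablation tumors. Above the control median were 7 of the 8 cryoablation tumors, and control tumor 5 was almost as high as cryoablation tumor 4, the highest. edgeR put the log2 fold change at 0.40 ± 0.24 (SE; edgeR unadjusted p = 0.110, adjusted p = 0.728; exact permutation p = 0.0933).

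The genes of both alpha subunits had negative log2 fold changes that did not pass the test. Hif1a was at 98.7, 157 and 232 CPM in control tumors and at 63.7, 134 and 243.7 CPM in cryoablation tumors. Below the control median were 6 of the 8 cryoablation tumors, with tumor 5 the lowest of all and tumor 7 the highest. Between the groups the log2 fold change was -0.20 ± 0.22 (SE; edgeR adjusted p = 0.772; exact permutation p = 0.319), and it was 0.036 without tumors 2, 4 and 5. Epas1 was at 12.3, 20.5 and 67.7 CPM in control tumors and at 12.9, 19.4 and 32.6 CPM in cryoablation tumors. Control tumors 4, 3 and 7 were above every cryoablation tumor, and control tumor 1 was the lowest of all 17. The log2 fold change was -0.44 ± 0.33 (SE; edgeR adjusted p = 0.734; exact permutation p = 0.464). Epas1 is rich in endothelium, and the 9 endothelial markers all passed the filter. Summed, they were at 101 to 221 CPM in control and 113 to 168 CPM in cryoablation tumors. Their log2 fold changes were negative for Pecam1, Cdh5, Kdr, Tek, Erg and Vwf and positive for Emcn, Cldn5 and Esam. None of the 9 had an unadjusted edgeR p under 0.05. Control tumor 4 was the highest for these markers too (221 CPM), and their part in the Epas1 level was not tested.

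Within tumors, 11 ratios between paired isozymes or family members were compared. None passed the test of a difference between the groups, with an adjusted exact permutation p of 0.993 for each. The ratio of Car12 over Car9 (exact permutation p = 0.590) rested on only 1 to 43 counts of Car12 per tumor. The smallest unadjusted p was 0.151, for Slc2a3 over Slc2a1, whose mean log2 ratio was -4.76 ± 0.73 (SD) in control and -5.20 ± 0.38 (SD) in cryoablation tumors. The mean log2 ratio of Hk2 over Hk1 was -1.33 ± 0.46 (SD) in control and -1.35 ± 0.61 (SD) in cryoablation tumors. These ratios are of CPM not divided by length, so only their difference between the groups is read.

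The members varied more from tumor to tumor than between the groups. Their median SD of log2 CPM was 0.30 in control and 0.46 in cryoablation tumors, beside a median absolute log2 fold change of 0.17, and over all genes these medians were 0.27, 0.41 and 0.14. The SD of log2 CPM was larger in cryoablation than in control tumors for 28 of 36 members (77.8%), as it was for 80.2% of all genes. Cryoablation tumor 7 held the highest value of the series for 14 of 36 members (38.9%), where 16.8% of all genes had their highest value there. Cryoablation tumor 5 held the lowest value for 8 members (22.2%, beside 21.7% of all genes) and tumor 4 for 7 (19.4%, beside 17.4%), while tumor 7 did for 1 (9.76% of all genes) and tumor 2 for 0 (5.49%). Highest values were also in tumor 5 for 5 members (21.7% of all genes), in tumor 2 for 4 (4.21%) and in tumor 4 for 2 (12.6%). The median standardized level over the members was 0.92 in cryoablation tumor 7, the highest of the series, and -0.62 in control tumor 1, the lowest. Reads on the 37 genes made up 1.35% to 2.09% of the total in control tumors and 1.31% to 1.93% in cryoablation tumors.

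**Figure D3:**
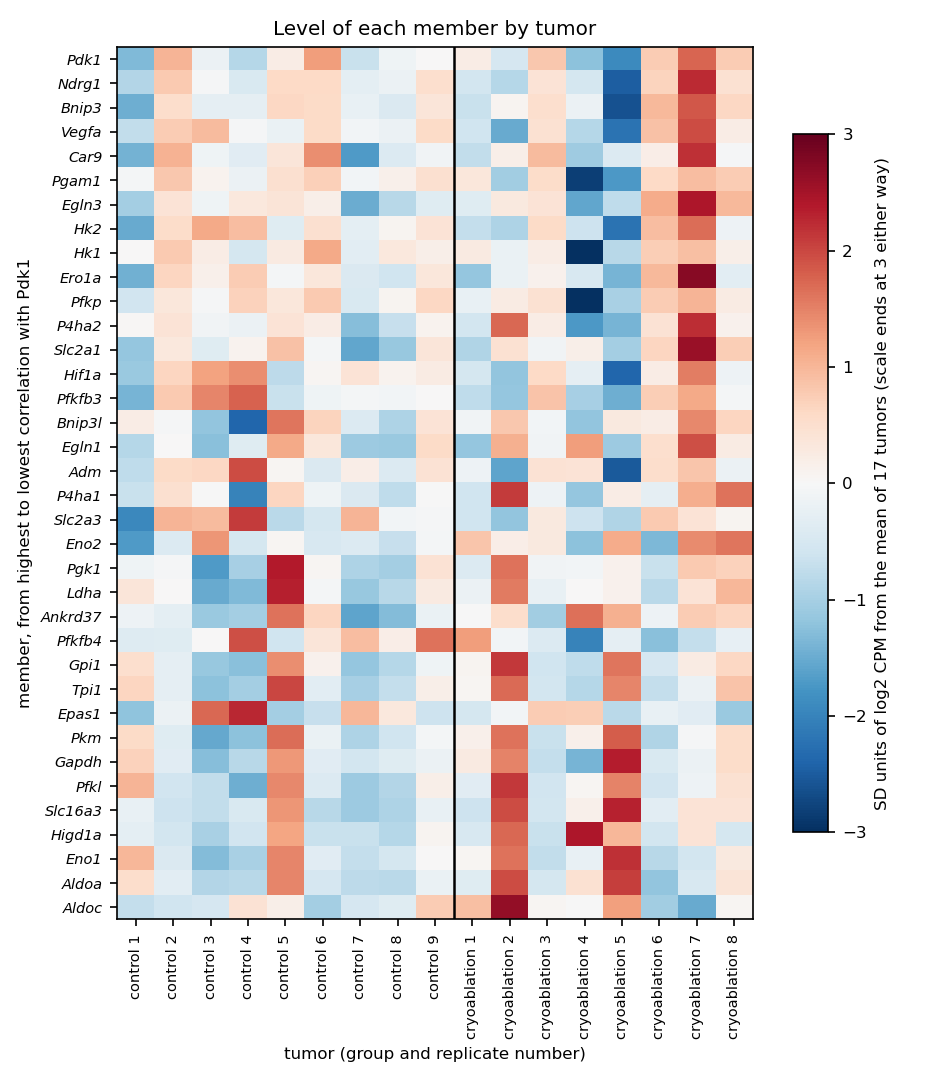
Level of each tested member (rows, ordered by correlation with Pdk1) in each tumor (columns, 9 control to the left of the black line and 8 cryoablation to the right), in SD units of log2 CPM from the mean of the 17 tumors, red for higher and blue for lower. Cryoablation tumor 7 is red over the upper rows from Pdk1 to Slc2a1, and control tumor 5 with cryoablation tumors 2 and 5 is red over the lower rows from Gpi1 to Aldoa, where Epas1 is an exception.

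To describe which members varied together, each was correlated with Pdk1, the enzyme at the branch between lactate and mitochondria, over the 17 tumors. Points share each tumor's library, depth and base composition. Of 35 relations computed, 12 had a Benjamini-Hochberg adjusted permutation p of r under 0.05, and 10 of these also had one of rho under 0.05. These 12 are the members with r over 0.6 (34.3% of 35), a level that 22.2% of all genes reached with Pdk1. Ndrg1 was the closest, with r = 0.89 (permutation p = 1e-05, the smallest that 100000 permutations can give; adjusted p = 0.000175) and rho = 0.87 (permutation p = 2e-05; adjusted p = 0.000175). For Bnip3, r was 0.86 (permutation p = 1e-05; adjusted p = 0.000175) and rho was 0.80 (permutation p = 0.00017; adjusted p = 0.00119). For Car9, r was 0.80 (permutation p = 6e-05; adjusted p = 0.000525) and rho was 0.85 (permutation p = 2e-05; adjusted p = 0.000175). The others were Vegfa (r = 0.81), Pgam1 (0.78), Egln3 (0.77), Hk2 (0.72), Hk1 (0.70), Ero1a (0.70), Pfkp (0.66), P4ha2 (0.63) and Slc2a1 (0.62). Cryoablation tumor 7 was the highest of the series for 11 of these 12 members.

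The relations were recomputed within groups and without single tumors. Within the 9 control tumors, 5 of the 12 had an adjusted exact permutation p under 0.05: Ndrg1 (r = 0.91), Bnip3 (0.84), Car9 (0.92), Pgam1 (0.93) and Hk1 (0.89). Within the 8 cryoablation tumors, 6 of the 12 did, among them Ndrg1 (r = 0.93), Bnip3 (0.88), Vegfa (0.93) and Pgam1 (0.90). Without the 2 tumors farthest from the median of Pdk1, cryoablation 5 and 7, r stayed at 0.84 for Ndrg1, 0.75 for Bnip3 and 0.82 for Car9. It was 0.50 for Hk2, 0.48 for Ero1a, 0.41 for Slc2a1 and 0.39 for P4ha2, so these 4 relations rested in part on those tumors. Without cryoablation tumors 2, 4 and 5, r was 0.86 for both Ndrg1 and Bnip3, 0.89 for Car9 and 0.94 for Pgam1.

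Of the 9 enzymes of lower glycolysis, Pgam1 followed Pdk1 in the levels as counted, and the adjusted permutation p of r was over 0.05 for the other 8. Pgk1 had r = 0.18 (permutation p = 0.483; adjusted p = 0.564), Ldha r = 0.11 (permutation p = 0.662; adjusted p = 0.724), Tpi1 r = -0.15 and Eno1 r = -0.44. After the dependence of each tumor on length and GC content of genes was removed, a step added after the data were seen, r was 0.91 for Pgk1, 0.74 for Ldha, 0.75 for Ankrd37 and 0.64 for Tpi1. It was 0.76 for Ndrg1, 0.73 for Bnip3 and 0.76 for Car9 on the same scale. Lower values were those of Pgam1 (0.55), Vegfa (0.51), Ero1a (0.48), Hk2 (0.36) and Pfkp (0.32). The correlation with Eno1 was 0.052 after the same step. With the trend removed, 12 of 35 members had r over 0.6 with Pdk1 (34.3%), beside 4.36% of all genes. These are not the same 12 as before: Ndrg1, Bnip3, Car9, Egln3, Hk1, P4ha2 and Slc2a1 were over 0.6 both before and after this step. Before it, Pdk1 followed the share of reads on short genes at r = -0.74, Eno1 at r = 0.80 and Aldoa at r = 0.88. Of the 36 members, 11 had r over 0.5 with that share (30.6%, beside 30.6% of all genes) and 13 had r under -0.5 (36.1%, beside 35.6%).

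**Figure D4:**
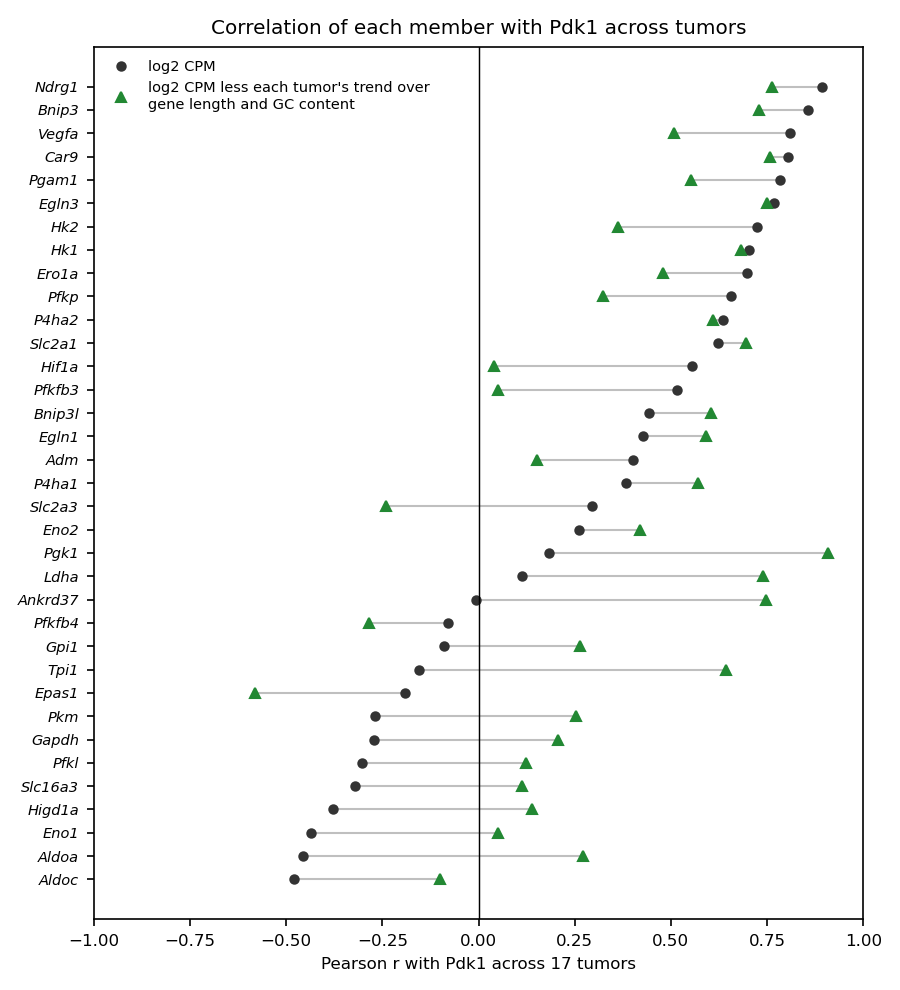
Pearson r of each member with Pdk1 over 17 tumors on the x axis, for log2 CPM (black circles) and for log2 CPM after removal of each tumor's dependence on length and GC content of genes (green triangles), with a grey line joining the pair of values of each member. Pgk1 moves from 0.18 to 0.91 and Ldha from 0.11 to 0.74, while Car9, Egln3, Hk1 and P4ha2 move little.

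A second set of members ran together with Gapdh, a reference taken after the values were seen and described with no test. Over the 17 tumors, Gapdh correlated with Eno1 (r = 0.94), Tpi1 (0.93), Gpi1 (0.92), Pkm (0.89), Pfkl (0.84), Aldoa (0.83) and Slc16a3 (0.81). These 7 (20.0% of 35) had r over 0.8, as 5.21% of all genes did. Gapdh ran opposite, at r under -0.6, to Hif1a (r = -0.81), Adm (-0.79), Hk2 (-0.69), Epas1 (-0.67), Pfkfb3 (-0.66), Slc2a3 (-0.62) and Vegfa (-0.61). The share of all genes at this limit was not computed. With the share of reads on short genes, r was 0.60 for Gapdh and -0.81 for Hif1a, and its part was not tested. Removal of the length and GC trend left r at 0.91 for Eno1 and -0.81 for Hif1a. Within the control tumors alone, r was 0.99 for Eno1 and -0.90 for Hif1a.

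**Figure D5:**
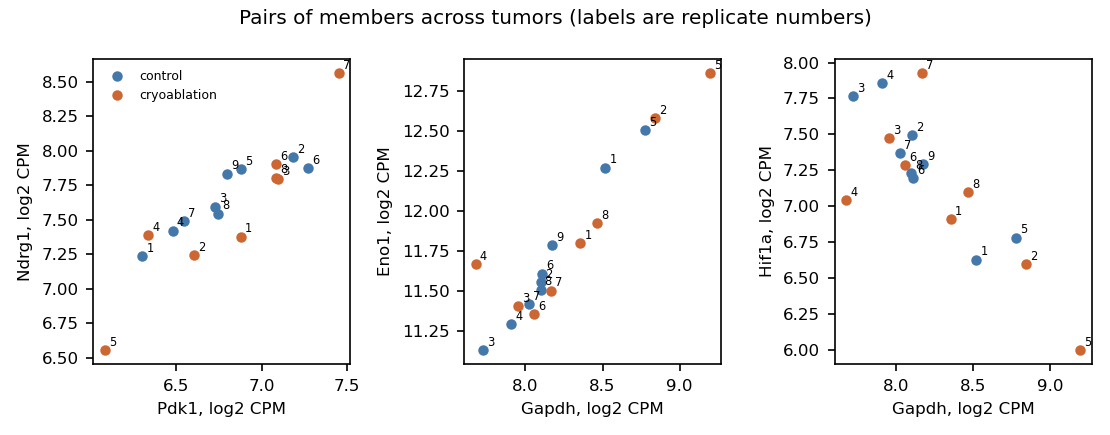
Log2 CPM of 3 pairs of members in each tumor, Ndrg1 against Pdk1, Eno1 against Gapdh and Hif1a against Gapdh, with control tumors in blue, cryoablation tumors in orange and replicate numbers as labels. Tumors of both groups rise together for the first pair (r = 0.89) and the second (r = 0.94), and the third pair falls (r = -0.81).

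The wider pathway was read from 4 further lists of 71 genes, of which 62 were tested. At an unadjusted edgeR p under 0.05, 3 were higher after cryoablation and 1 was lower, beside 3.74% and 1.17% of all genes, and 0 had an adjusted p under 0.05. Of 16 other glycolysis genes tested, 1 was higher and 1 lower. Pfkfb1, a further isozyme of the bifunctional enzyme, was at 4.26, 6.03 and 8.07 CPM in control tumors and at 5.07, 9.10 and 14.5 CPM in cryoablation tumors. Above the control median were 6 of the 8 cryoablation tumors. Its log2 fold change was 0.60 ± 0.21 (SE; edgeR unadjusted p = 0.0103, adjusted p = 0.728). Hk3, a hexokinase of myeloid cells, was at 24.0, 56.3 and 131.6 CPM in control tumors and at 30.9, 38.5 and 59.8 CPM in cryoablation tumors. Its log2 fold change was -0.54 ± 0.26 (SE; edgeR unadjusted p = 0.0490, adjusted p = 0.728), and the exact permutation p was 0.142. The 9 macrophage markers summed to 1016 to 2777 CPM in control and 826 to 3637 CPM in cryoablation tumors. C1qa, C1qb and C1qc made up most of this sum, and of the 9 markers Adgre1 was the 1 with an unadjusted edgeR p under 0.05, with a log2 fold change of -0.69 (adjusted p over 0.05). Their part in Hk3 was not tested.

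Of 11 genes of pyruvate dehydrogenase, its kinases and phosphatases and the mitochondrial pyruvate carrier, 0 had an unadjusted p under 0.05. Of 10 regulators of HIF tested, 1 did. This was Vhl, the subunit that recognizes hydroxylated HIF alpha for degradation, with 30.9, 33.5 and 38.0 CPM in control tumors and 34.5, 37.3 and 53.1 CPM in cryoablation tumors. Each of the 8 cryoablation tumors exceeded the control median, and the ranges overlapped. This gave a log2 fold change of 0.21 ± 0.098 (SE; edgeR unadjusted p = 0.0469, adjusted p = 0.728; exact permutation p = 0.0334). Of 26 other hypoxia response genes tested, 1 was higher, the transferrin receptor gene Tfrc, which imports iron. Tfrc was at 40.5, 81.3 and 102 CPM in control tumors and at 90.2, 142 and 171 CPM in cryoablation tumors, with a log2 fold change of 0.74 ± 0.17 (SE; edgeR unadjusted p = 0.000306, adjusted p = 0.728; exact permutation p = 0.000699). The medians of the 4 lists' log2 fold changes lay between 0.0076 and 0.094, beside -0.0088 over all genes.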

How the data were processed

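RNA-seq of 17 distant MC38 tumors (9 control, 8 cryoablation) was analysed, with groups taken from the sample labels and 0 columns left without a label. The text of the study gives the sizes of the groups the other way round, and the labels were followed. The authors deposited read counts for each of 21931 genes in each tumor, which are not normalized. They also deposited FPKM, which follow from these counts, the listed lengths and the totals (largest relative difference 5.15e-15) and were not used. The aligner, counter and strand setting are not given in the sources used here. The labels name GRCm38 (mm10), but the table's start and end equal those of GENCODE M21 for only 512 of 21827 shared genes, so none of the table's positions are given. The counts of the tumors were all different (0 identical pairs).

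Counts were tested with edgeR 4.0.16 in R 4.3.3 (TMM, filterByExpr by group, quasi-likelihood F test, group as the only term) with Benjamini-Hochberg adjustment over 13005 genes. The SE was taken from the log2 fold change and F. Single values were compared by two-sided exact permutation tests of log2 CPM (prior count 2) over all 24310 assignments of tumors to the groups (smallest possible p 4.11e-05), and correlations by 100000 two-sided permutations. CPM uses the TMM-scaled totals. A floor of 3 counts corresponded to 0.168 to 0.222 CPM on totals that were not TMM-scaled. Like the counts' precision, this floor covers counting error only.

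The members and lists were chosen with earlier results of these data known. Values per group are given for 10 fixed members, for the 6 with the smallest p and for the 3 of the members tested with the largest SD over tumors; other members are given by their fold change or range. For Aldoa, the row with more counts was used. Promoter windows came from RefSeq (GRCm38.p6). The marker lists were endothelium, erythroid cells, neutrophils, macrophages, T cells, fibroblasts, skeletal muscle, adipocytes, epidermis, colon epithelium and proliferation, summed as CPM. Among the lists not described with the results, unadjusted p was under 0.05 for 2 of 5 tested neutrophil, 3 of 6 adipocyte and 1 of 3 epidermal genes, all higher after cryoablation, and for 0 of the T cell, fibroblast, skeletal muscle and proliferation genes. Alternatives were DESeq2 1.42.0, limma 3.58.1 voom with quality weights, DESeq2 size factors, upper-quartile scaling, no filter, a mean of at least 10 counts, a prior count of 0.5, a replicate block, gene length offsets (natural splines, 4 df), leaving out cryoablation tumors 2, 4 and 5 together, and leaving out each tumor. Offsets for length and GC content, the correlations with Gapdh and the alternatives for the pathway lists and for the correlations without single tumors were added after the data were seen, as were the limits on r at which members and all genes were counted. The scripts were tested on simulated counts.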

Additional observations from a re-analysis of the deposited data

Results flagged for a closer look

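A tumor stood apart from the others of its group in 7 of 94 groups of values examined by Dixon's gap test, and chance alone flags about 1 in 20 such groups. Hk1 was at 71.5 CPM in cryoablation tumor 4, beside 132 to 203 CPM in the other 7. Pfkp was at 75.1 CPM in the same tumor, beside 126 to 195 CPM. Control tumor 5 stood above the other 8 control tumors for Ldha at 2573 CPM (others 1432 to 1907), for Slc16a3 at 274.7 CPM (161 to 195) and for Higd1a at 105.8 CPM (53.3 to 74.7). The log2 ratio of Bnip3l over Bnip3 was 2.08 in control tumor 1, beside 0.92 to 1.37 in the other control tumors. It was 2.66 in cryoablation tumor 5, beside 0.73 to 1.62 in the other cryoablation tumors.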

How the results depend on the processing

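The adjusted p of all 36 members stayed at or over 0.05 under every alternative, and 0 members passed a log2 fold change beyond 1 with p under 0.05. The number of members with an unadjusted p under 0.05 (1) was 2, Slc16a3 and Higd1a, under DESeq2 (6.77% of all genes called), the replicate block (3.43%), gene length offsets (5.44%) and length and GC content offsets (5.61%). It was 2, Pdk1 and Egln3, without cryoablation tumors 2, 4 and 5 together (2.45%), 5 under voom (10.1%), 0 with upper-quartile scaling (4.46%) and 0 without a filter (5.57%). Leaving out 1 tumor gave 0 to 4: 4 without control tumor 5 (9.61% of all genes) and 3 without cryoablation tumor 1 (5.21%) or 3 (10.6%). It gave 2 without cryoablation tumor 4 (2.45%) or 6 (9.95%) and 1 without cryoablation tumor 7 (10.1%) or 8 (5.51%). It gave 0 without any other tumor (1.93% to 9.89%). The median member log2 fold change was then 0.057 to 0.17, and 0 to 5 members had an exact permutation p under 0.05. All tumors together gave 0 such members, and 1 was found without tumors 2, 4 and 5 or with the block. This permutation test was not run over all genes, so no share of all genes stands beside it. The 4 called genes of the pathway lists (4.91% of all genes called) were 10 under voom (10.1%) and 7 with length offsets (5.44%). When 1 tumor was left out they were 2 to 6, such as 2 without control tumor 2 (2.87%) and 6 without control tumor 1 (9.89%). The 12 relations with Pdk1 were 5 within control tumors and 10 to 15 when 1 tumor was left out.

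Without cryoablation tumors 2, 4 and 5 the sign turned for 12 members' log2 fold changes: Hk1 (0.069), Hk2 (0.18), Pfkl (-0.020), Pfkp (0.073), Pfkfb3 (0.047), Aldoa (-0.10), Tpi1 (-0.0051), Pgam1 (0.15), Eno1 (-0.14), Vegfa (0.22), Higd1a (-0.025) and Hif1a (0.036). It turned for the differences in log2 ratio of Hk2/Hk1 (0.089), Pfkp/Pfkl (0.068), Pfkfb4/Pfkfb3 (-0.26), Eno2/Eno1 (0.35), Bnip3l/Bnip3 (-0.21) and P4ha2/P4ha1 (0.0085). It also turned for Pfkp with length offsets (0.014) and length and GC offsets (0.017), for Pgam1 (0.036) and Ero1a (-0.048) under voom, and under the replicate block for Ndrg1 (-0.036) and Hk2/Hk1 (0.00037). The cause was not tested. When 1 tumor was left out, log2 fold changes on both sides of 0 were seen for Bnip3 (-0.0031 to 0.28), Car9 (-0.035 to 0.25), Ero1a (-0.13 to 0.19), Hk2 (-0.31 to 0.0077), Ndrg1 (-0.17 to 0.13), Pdk1 (-0.021 to 0.17), Pfkp (-0.15 to 0.012) and Vegfa (-0.28 to 0.023). For 24 other members the value moved by over 1.5 times with its sign kept, such as Slc2a1 (0.082) and Egln3 (0.19) without cryoablation tumor 7, Aldoc (0.14) without cryoablation tumor 2, and Eno1 (0.063) and Gapdh (0.069) without cryoablation tumor 5. Ratio differences lay on both sides of 0 for Aldoc/Aldoa (-0.049 to 0.11), Bnip3l/Bnip3 (-0.15 to 0.14), Eno2/Eno1 (-0.13 to 0.13), Epas1/Hif1a (-0.10 to 0.13), Hk2/Hk1 (-0.14 to 0.11) and Pfkfb4/Pfkfb3 (-0.0019 to 0.27).

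Same-numbered tumors of the groups had correlations of their deviations between -0.51 and 0.64, not all over 0.1, and 2 of 8 cryoablation tumors correlated best with their own number, so the numbers were not taken as pairs. With the replicate block, 446 genes instead of 639 had an unadjusted p under 0.05. Depth limited Car12, and 8 to 9 tumors per group with SDs of this size limit every comparison.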
